A study of Mus musculus with 8 samples.

Results

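The genes described here are those of glycolysis and glucose uptake: the glucose carriers, the enzymes that turn glucose into pyruvate and lactate, the enzymes that set the pace of the phosphofructokinase step, the carriers of lactate and pyruvate, and the kinases that hold back the pyruvate dehydrogenase complex. They were chosen by symbol from a list of 38. The rule used no measured value, but the list was chosen with earlier results of these data known. The 38 symbols matched 39 of the 31010 gene identifiers measured, because Aldoa had a pair of them, and 33 of the 39 had a mean of at least 1 FPKM (reads per kilobase of exon, scaled to library size), the minimum for a test. RNA-seq had been performed on 8 lines of germline stem (GS) cells, which are cultures of spermatogonial stem cells, of which 4 came from control-F1 mice and 4 from ICSI-F1 mice. ICSI, intracytoplasmic sperm injection, places a single sperm in the oocyte, and the ICSI-F1 mice were the offspring born from it. The titles named a B6 background, the genotype was given as WT for all 8 samples, and the treatment as ICSI or none. All lines had started from spermatogonia sorted for CD9 on magnetic beads from mature testes. They grew in a medium with GDNF, FGF2, glucose, pyruvic acid and lactic acid. The labels did not name the mouse behind each line. F1 animals carried the same numbers as the lines in the supplement of the study, which points to a separate mouse for each line. Litters were not given, n counts lines, and the p-values measure only the spread between these lines.

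Glycolysis splits glucose into pyruvate in the cytosol and yields ATP without oxygen. Pyruvate then enters mitochondria through the pyruvate carrier, where the pyruvate dehydrogenase complex feeds it to the citric acid cycle, or it is reduced to lactate, which leaves the cell through monocarboxylate transporters. Most steps have several isozymes encoded by separate genes, among them forms of the testis (Pgk2, Ldhc) that appear as germ cells enter meiosis and become sperm. Cultured spermatogonial stem cells are known for relying on glycolysis.

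The sample titles came in 2 styles. Title form 1, written with hyphens, covered lines 29 and 37 of the controls with lines 11 and 17 of the ICSI group. Title form 2, joined by _ characters, covered lines 44 and 45 of the controls with lines 20 and 21 of the ICSI group. The processing notes of the forms named different versions of each tool. The methods of the study, however, name only the versions noted for title form 1. The libraries of title form 2 were deeper, with 32328248 to 44232916 reads recovered per line against 24680949 to 26634381. What the forms stand for is not stated, so they were compared as a possible technical batch that held 2 lines of each group. For a gene with 1 kb of exons, a single read came to 0.0227 to 0.0401 FPKM. All 13 spermatogonial markers examined were above the minimum, with Ddx4 at 173 to 274 FPKM. Of the 7 spermatid genes, Prm1, Prm2 and Tnp2 were at 0 in every line, where a count of 0 allows up to 3 reads, Acrv1 reached 0.044 FPKM at most, Akap4 and Odf1 ran from 0.273 to 1.02 FPKM, and Tnp1 was at 5.38 to 12.3 FPKM. Fibroblast markers were also present (19 of 20 above the minimum, with a mean log2(FPKM + 1) of 3.32 to 5.18 per line). Between title forms 0 of the 19 passed the threshold, against 16.0% of all genes. All 19 had the lower mean in the ICSI lines (median log2 difference -0.22, 0 past the threshold). In bulk RNA, fewer cells of a type and less RNA per cell cannot be told apart.

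**Figure D1:**
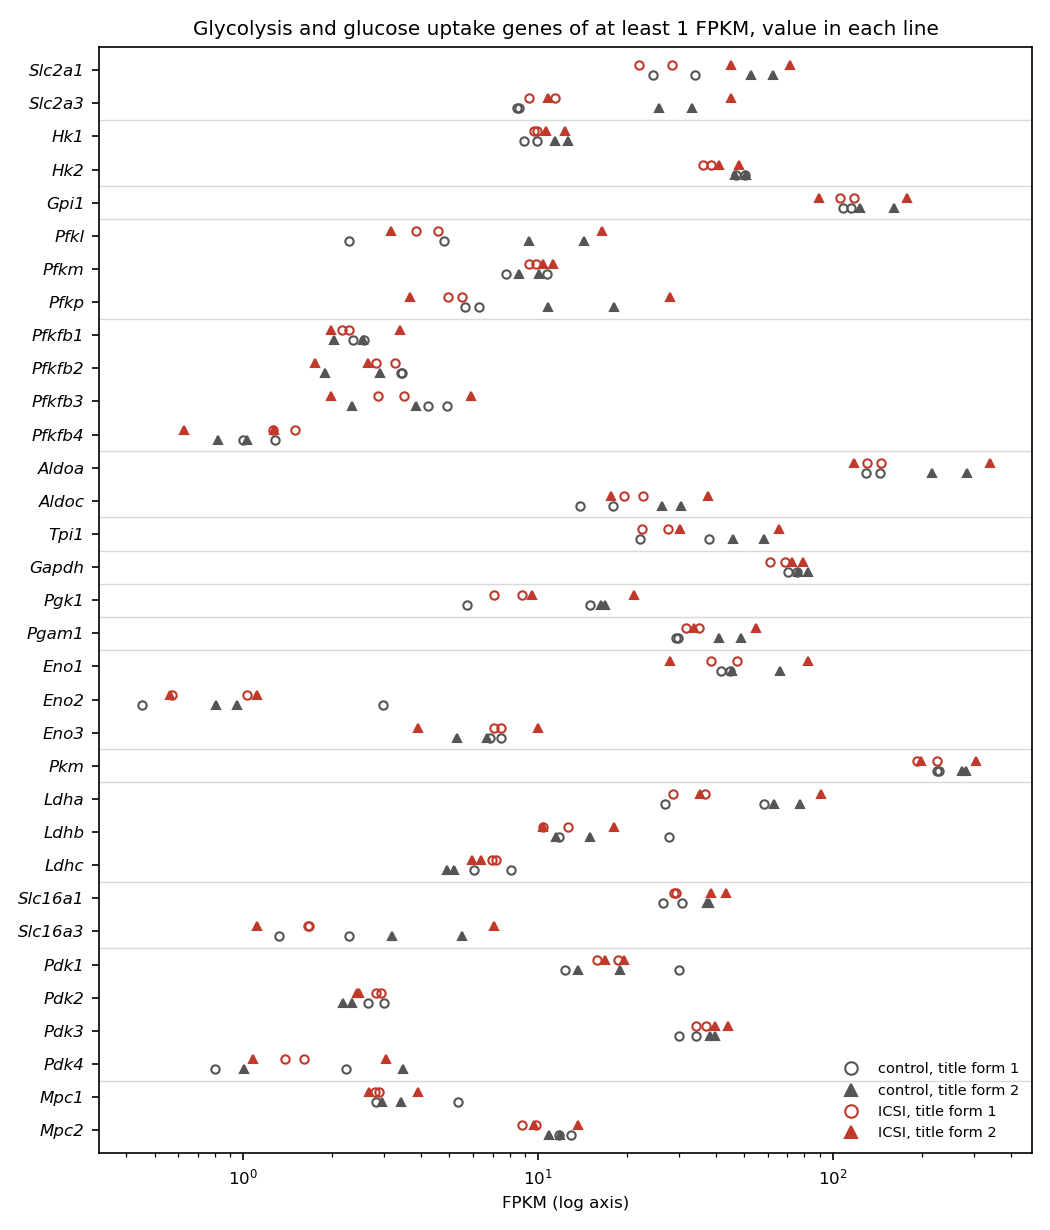
FPKM (log axis) of the 33 genes that averaged at least 1 FPKM, 1 point per line, grouped by step of the pathway. Grey marks control lines and red ICSI lines, and open circles mark title form 1 and filled triangles title form 2. The levels ran from 0.452 (Eno2 in control line 37) to 340 FPKM (Aldoa in ICSI line 21), and grey and red points of the same gene overlapped throughout.

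The list held 3 glucose carriers. Slc2a1 (ENSMUSG00000028645, chromosome 4: 119108711 to 119137983, plus strand, GRCm38) encodes GLUT1, the basal glucose carrier of most proliferating cells. It was at 34.1, 24.5, 52.6 and 62.6 FPKM in control lines 29, 37, 44 and 45, and at 28.3, 22.0, 45.2 and 71.7 FPKM in ICSI lines 11, 17, 20 and 21. The 4 lines of title form 2 were all above the 4 of title form 1, while controls and ICSI lines overlapped. Slc2a3 (ENSMUSG00000003153, chromosome 6: 122727809 to 122801640, minus strand) encodes GLUT3, a carrier of high affinity. It was at 8.60, 8.50, 25.7 and 33.1 FPKM in the controls and at 9.32, 11.4, 10.8 and 45.1 FPKM in the ICSI lines. The lines 44, 45 and 21 were high, whereas ICSI line 20 stood with title form 1. Slc2a4, which encodes the insulin-responsive carrier GLUT4, stayed below the minimum at 0.167 to 0.445 FPKM. Slc2a1 was the most abundant carrier in every line, with 61.2% to 80.3% of the FPKM summed over the 3.

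Hexokinase, which traps glucose in the cell by phosphorylating it, was mostly Hk2. This gene was at 46.7, 50.2, 50.5 and 46.7 FPKM in control lines 29, 37, 44 and 45 and at 36.1, 38.5, 40.9 and 48.0 FPKM in ICSI lines 11, 17, 20 and 21. The lowest 3 values were those of ICSI lines, and ICSI line 21 lay within the control range. Hk1 ran from 8.97 to 12.6 FPKM, and Hk3 from 0.00877 to 0.0867 FPKM (1 to 10 reads), so that Hk2 held 78.4% to 83.8% of the summed FPKM. Gpi1, the isomerase of the next step, was at 108, 115, 124 and 161 FPKM in the controls and at 118, 105, 89.9 and 178 FPKM in the ICSI lines. The highest and the lowest of these 8 values both belonged to ICSI lines of title form 2.

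Phosphofructokinase commits the sugar to glycolysis and is built from liver (Pfkl), muscle (Pfkm) and platelet (Pfkp) subunits. Pfkp had the highest mean FPKM of the 3 and was at 5.63, 6.28, 10.8 and 18.1 FPKM in the control lines in the order above and at 5.53, 4.96, 3.67 and 27.9 FPKM in the ICSI lines. Its highest value was 7.60 times its lowest, the widest range of any gene of the list above the minimum. Pfkl varied almost as widely (2.28 to 16.5 FPKM), whereas Pfkm kept to 7.79 to 11.2 FPKM. The leading subunit therefore changed between lines: Pfkm held 47.6% to 52.8% of the summed FPKM in title form 1 and 60.3% in ICSI line 20, while in control lines 44 and 45 and ICSI line 21 it held 30.0%, 23.6% and 20.1% and Pfkp came first. FPKM divides by all annotated exons, and Pfkp had 13853 distinct windows of 76 bases in its transcripts against 3282 of Pfkm, so the order of the subunits rests on that length. The shift between lines does not, since the divisor is the same in each. The PFKFB enzymes make and degrade fructose 2,6-bisphosphate, the activator of this step. Pfkfb3 was the most abundant in every line, at 4.91, 4.23, 2.33 and 3.85 FPKM in the controls and 3.51, 2.87, 1.99 and 5.94 FPKM in the ICSI lines. Pfkfb1, Pfkfb2 and Pfkfb4 ranged from 0.629 to 3.45 FPKM over all lines.

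In the middle of the pathway, Aldoa, the aldolase of muscle and of most other cells, was at 129, 144, 217 and 285 FPKM in control lines 29, 37, 44 and 45 and at 146, 131, 118 and 340 FPKM in ICSI lines 11, 17, 20 and 21. ICSI lines of title form 2 again gave both extremes. Aldoa held 85.1% to 90.3% of the aldolase FPKM, and Aldoc ran from 13.9 to 37.7 FPKM. The second identifier named Aldoa (ENSMUSG00000114515, chromosome 7: 126800790 to 126809108) had 1 to 7 reads per line. Tpi1, which interconverts the triose phosphates, was at 38.1, 22.1, 45.9 and 58.4 FPKM in the controls and at 22.5, 27.5, 30.2 and 65.6 FPKM in the ICSI lines. Gapdh, which couples triose oxidation to the making of NADH, was at 75.7, 70.6, 76.1 and 82.0 FPKM in the controls and at 68.8, 61.0, 72.3 and 78.9 FPKM in the ICSI lines. Its highest value was 1.34 times its lowest, the narrowest range among the 33 genes. The ratio of Aldoa to Gapdh consequently ran from 1.63 in ICSI line 20 to 4.30 in ICSI line 21.

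Pgk1, an X-linked kinase that makes ATP, was at 15.0, 5.72, 16.4 and 16.8 FPKM in the controls and at 7.06, 8.79, 9.54 and 21.1 FPKM in the ICSI lines. Control line 37 was the lowest of all 8. Its testis counterpart Pgk2 was at 0.581, 0.247, 0.413 and 0.181 FPKM in the controls and 0.421, 0.371, 0.576 and 0.0357 FPKM in the ICSI lines, from 2 to 29 reads. Pgam1, the mutase, was at 29.4, 29.7, 40.9 and 48.9 FPKM in the controls and 31.6, 35.2, 33.8 and 54.9 FPKM in the ICSI lines, and its muscle form Pgam2 had 1 to 6 reads. Eno1, the enolase of most tissues, was at 44.6, 41.7, 45.4 and 66.0 FPKM in the controls and 47.1, 38.6, 28.1 and 82.2 FPKM in the ICSI lines. Eno1 held 81.9% to 89.6% of the enolase FPKM. The neuronal form Eno2 was at 2.97 FPKM in control line 29 and at 0.452 to 1.12 FPKM in the other lines. Control line 29 also had the highest mean of the fibroblast markers, and their part in this value was not tested. Pkm, pyruvate kinase of muscle and dividing cells, was the most abundant gene of the list by mean, at 226, 229, 274 and 283 FPKM in the controls and 225, 192, 199 and 305 FPKM in the ICSI lines. Its liver and red cell counterpart Pklr had 0 to 9 reads. Near copies may have raised or lowered these values, depending on how reads that match several genes were counted. Of the 76-base windows, 52.7% of those of Pgk1, 34.8% of Pgam1, 22.9% of Eno1, 22.5% of Gapdh and 17.5% of Pkm also occur in transcripts of other genes. For Slc2a1, Slc2a3 and Ldha the shares were 0.806%, 0.506% and 2.55%, and Slc16a1 had none. Ldhb, Mpc1, Pfkfb2, Gpi1 and Pklr had shares of 12.3%, 21.1%, 16.2%, 10.7% and 19.9%.

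Lactate dehydrogenase reduces pyruvate to lactate, and its A subunit favours lactate while its B subunit favours pyruvate. Ldha was at 58.6, 26.9, 62.9 and 77.5 FPKM in the controls and at 28.6, 36.7, 35.3 and 91.1 FPKM in the ICSI lines. Ldhb went from 10.4 to 27.7 FPKM and was lowest in ICSI line 21, where Ldha was highest. The ratio of Ldha to Ldhb was 2.11, 2.28, 4.21 and 6.74 in control lines 29, 37, 44 and 45 and 2.75, 2.90, 1.96 and 8.79 in ICSI lines 11, 17, 20 and 21. The ratio was above 4 in lines 44, 45 and 21 and below 3 in the other 5. Ldhc, the subunit of sperm and their precursors, was detected in every line at 8.08, 6.04, 5.18 and 4.92 FPKM in the controls and 6.95, 7.18, 5.95 and 6.42 FPKM in the ICSI lines, with 238 to 350 reads. It took 5.24% to 15.1% of the lactate dehydrogenase FPKM.

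Slc16a1 (ENSMUSG00000032902, chromosome 3: 104638668 to 104658462, plus strand) encodes MCT1, which moves lactate and pyruvate across the plasma membrane. It was at 30.7, 26.5, 38.1 and 37.4 FPKM in the controls and at 28.9, 29.4, 43.5 and 38.7 FPKM in the ICSI lines. All 4 lines of title form 2 exceeded those of title form 1. Slc16a3, which encodes MCT4, the lactate exporter of highly glycolytic cells, ran from 1.11 FPKM in ICSI line 20 to 7.07 FPKM in ICSI line 21. Pdk3 had the highest FPKM of the pyruvate dehydrogenase kinases in every line. It was at 29.9, 34.3, 39.8 and 38.2 FPKM in the controls and 34.4, 37.03, 44.2 and 39.8 FPKM in the ICSI lines. Pdk1 ran from 12.3 to 30.0 FPKM. The order of Pdk3 and Pdk1 rests on exon length, by which FPKM divides. Pdk1 had 8229 distinct windows in its transcripts against 2482 of Pdk3. In reads, Pdk1 exceeded Pdk3 in every line, with 4063 against 3503 in ICSI line 20 and 5239 against 3519 in ICSI line 21. Pdk2 and Pdk4 lay between 0.799 and 3.48 FPKM. The mitochondrial pyruvate carrier is a pair of subunits. Mpc2 was at 11.7, 12.9, 10.9 and 11.9 FPKM in the controls and 9.79, 8.79, 13.6 and 9.67 FPKM in the ICSI lines, and Mpc1 ran from 2.67 to 5.33 FPKM.

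**Figure D2:**
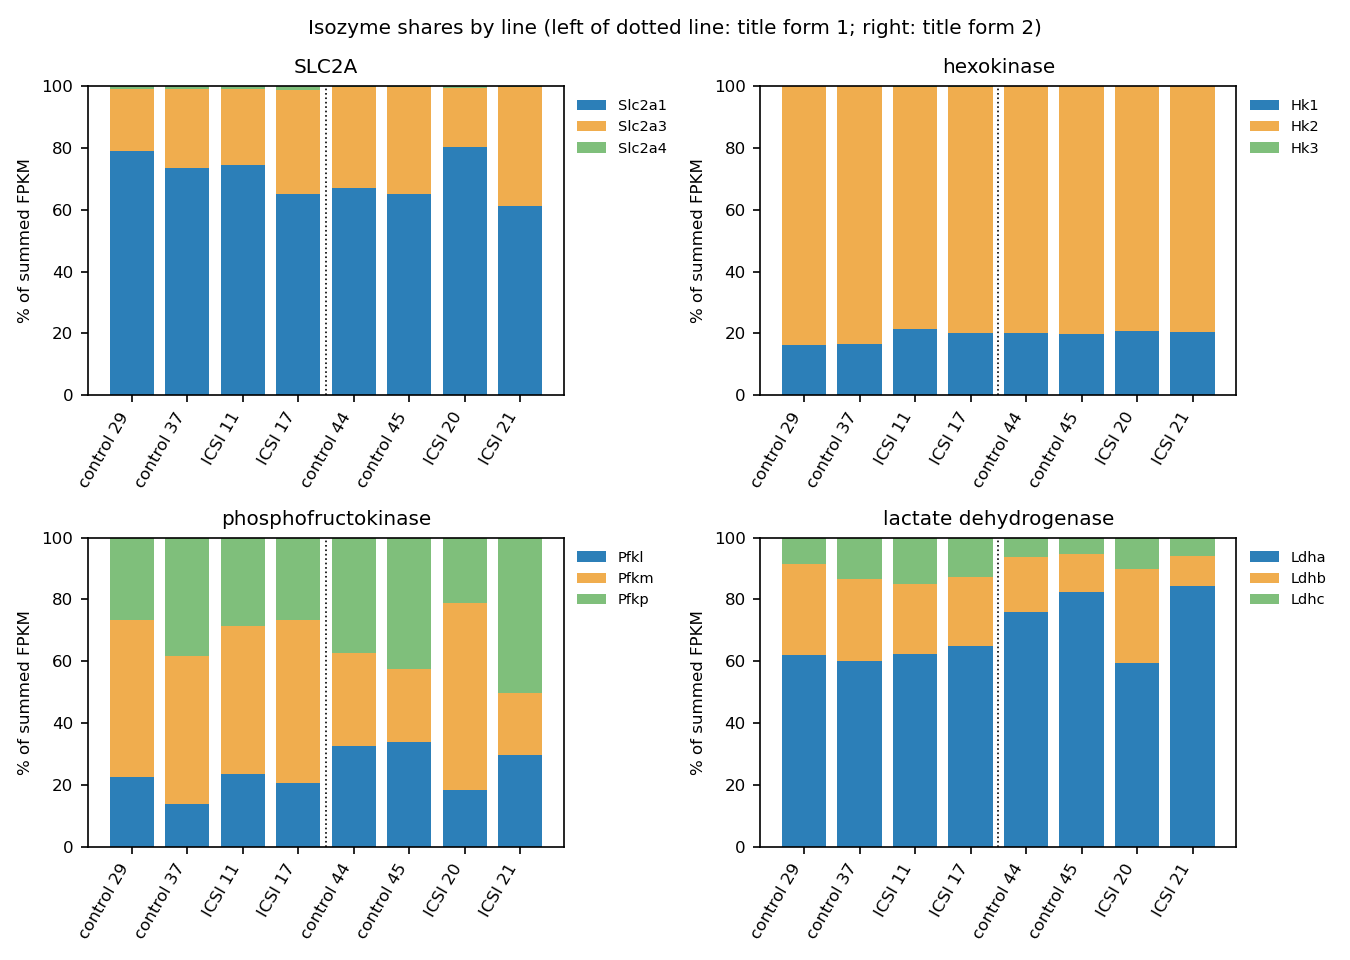
Share of summed FPKM (in %) of each gene within the carriers of the SLC2A family, hexokinase, phosphofructokinase and lactate dehydrogenase, 1 stacked bar per line with title form 1 left of the dotted line and title form 2 right of it. By FPKM, which divides by exon length, Slc2a1, Hk2 and Ldha came first in all 8 lines. Pfkm fell behind Pfkp in control lines 44 and 45 and ICSI line 21, where Ldha also took its largest shares (75.8%, 82.5% and 84.4%).

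Promoter sequences are shown for 4 of these genes: Slc2a1 and Slc16a1, whose levels differed between title forms, Pfkp, with the widest range, and Gapdh, with the narrowest. That of Slc2a3, which differed between title forms as well, is not shown. They are the 250 bases before the start of the gene in RefSeq (GRCm38.p6), at chr4:119108495-119108744 (plus strand), chr3:104638414-104638663 (plus), chr13:6648772-6649021 (minus) and chr6:125165774-125166023 (minus). Capitals mark ACGTG or GCGTG, the core letters of the element bound by hypoxia-inducible factors, on either strand (CACGT or CACGC on the other). ACGTG and CACGT overlap where they make CACGTG.
Slc2a1: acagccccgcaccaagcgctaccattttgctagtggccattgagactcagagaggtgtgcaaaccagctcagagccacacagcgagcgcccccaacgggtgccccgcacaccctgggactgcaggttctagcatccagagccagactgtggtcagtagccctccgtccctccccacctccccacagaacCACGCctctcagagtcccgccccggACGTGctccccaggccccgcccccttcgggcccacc
Slc16a1: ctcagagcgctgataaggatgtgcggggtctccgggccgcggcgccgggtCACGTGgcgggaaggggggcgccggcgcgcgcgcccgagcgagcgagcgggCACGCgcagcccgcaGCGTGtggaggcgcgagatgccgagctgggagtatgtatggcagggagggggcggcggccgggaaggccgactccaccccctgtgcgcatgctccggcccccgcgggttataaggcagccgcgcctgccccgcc
Pfkp: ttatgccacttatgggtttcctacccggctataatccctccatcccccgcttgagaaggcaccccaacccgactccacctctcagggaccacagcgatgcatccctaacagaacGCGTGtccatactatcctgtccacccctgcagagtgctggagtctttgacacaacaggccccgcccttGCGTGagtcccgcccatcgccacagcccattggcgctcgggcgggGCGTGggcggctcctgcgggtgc
Gapdh: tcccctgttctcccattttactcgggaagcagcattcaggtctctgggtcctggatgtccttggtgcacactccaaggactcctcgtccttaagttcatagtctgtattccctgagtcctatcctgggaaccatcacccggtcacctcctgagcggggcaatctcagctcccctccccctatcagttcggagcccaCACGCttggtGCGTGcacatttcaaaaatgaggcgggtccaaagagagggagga
The core letters begin 61 and 36 bases before the RefSeq start of Slc2a1 and 54 and 44 bases before that of Gapdh. They begin at 200, 199, 149 and 134 bases for Slc16a1 and at 136, 68 and 23 bases for Pfkp. In the GENCODE annotation, the source of the other gene positions here, Gapdh starts at 125166467 and its window lies inside the gene. The Slc2a1 window runs past the GENCODE start of that gene, 119108711. So short a motif is common: 12679 of 32851 promoter windows of this length (38.6%) held it, and 40 of the 58 windows of the 36 genes of the list found in the table did (69.0%). Whether the motif acts in these cells was not tested.

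The first comparison asked whether derivation from ICSI-F1 mice altered these genes. Of the 33 genes tested, 0 passed the threshold between ICSI and control lines (limma on log2(FPKM + 1), adjusted p over all genes), and across all 12000 genes tested 0 did (0.00%). Without adjustment, 55 genes (0.458%) had a p under 0.05, of which 1 was in the list, and limma-voom on recovered reads called 0 and left 49 at that unadjusted p. The log2 differences, ICSI minus control, had a median of -0.11 over the 33 genes, with 12 above 0 and 21 below, against -0.01 over all genes. Without control line 45 this median was 0.04 and without ICSI line 20 it was 0.02. The 2 groups did not separate for any of the 33 genes (0 of 33), as against 53 of the 12000 (0.442%).

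Hk2 had the smallest p. It averaged 48.5 ± 2.12 FPKM (SD, n = 4) in the controls and 40.9 ± 5.12 FPKM in the ICSI lines, a log2 difference of -0.25 ± 0.11 (SE) with an unadjusted p of 0.045 in limma and 0.0857 in the exact permutation test (two-sided, 70 assignments, smallest p 0.0286). The mean difference was -0.37 within title form 1 and -0.13 within title form 2. Mpc2 followed with 11.8 ± 0.822 against 10.5 ± 2.15 FPKM (log2 difference -0.18 ± 0.14, exact permutation p = 0.257), and Gapdh with 76.1 ± 4.66 against 70.3 ± 7.45 FPKM (-0.12 ± 0.11, exact permutation p = 0.257). None of the 3 passed the threshold after adjustment, and all kept a negative sign in every alternative. With title form as a covariate, 0 of the 33 genes passed and 1, again Hk2, had an unadjusted p under 0.05. The ICSI difference was also compared between the title forms with an interaction term. It passed for 0 of the 33 genes and 0 of the 12000 (0.00%), with 147 genes (1.23%) and 0 of the 33 at an unadjusted p under 0.05, and limma-voom called 0 with 119 at that p.

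The second comparison was between the title forms. Slc2a1, Slc2a3 and Slc16a1, which carry glucose in and lactate and pyruvate across the plasma membrane, were higher in title form 2, and no other gene of the list passed. Title form, depth and any difference in tool version cannot be told apart here. Some cell type markers differed between title forms as well, and the part of those markers in the result was not tested. Over all genes, 10.2% passed the threshold and were higher in title form 2, and 5.76% were lower. Of 13 spermatogonial markers, 8 were higher in title form 2 (median 0.48 over the 13), with a summed level of 1481 to 1682 FPKM against 1200.3 to 1384 FPKM. Of 6 spermatocyte markers tested, 2 were higher, Sycp1 and Sycp3, and the median over the 6 was 0.04, with 3 above 0 and 3 below. Those 2 were also the most abundant of their list, which summed to 228 to 272.6 against 156 to 200.2 FPKM. Of 3 Sertoli and Leydig cell genes tested, Sox9 was higher (1.03) and Wt1 lower (-0.82), and the list summed to 4.85 to 7.80 against 5.21 to 6.86 FPKM. The fibroblast markers, of which 0 of 19 passed, summed to 285 to 1025 against 329 to 1113 FPKM. Slc2a1 averaged 58.0 ± 11.6 FPKM (SD, n = 4) in title form 2 and 27.2 ± 5.25 FPKM in title form 1 (log2 difference 1.06 ± 0.17 SE, adjusted p = 0.0123). Slc2a3 averaged 28.7 ± 14.4 against 9.46 ± 1.36 FPKM (1.35 ± 0.37, adjusted p = 0.0405). Slc16a1 averaged 39.4 ± 2.78 against 28.9 ± 1.76 FPKM (0.44 ± 0.08, adjusted p = 0.0162). The call of Slc2a1 held in all 16 alternatives. That of Slc2a3 was lost in 9 of the 16 (adjusted p 0.0598 to 0.113), and that of Slc16a1 without control line 37, ICSI line 11 or ICSI line 17 (0.0566 to 0.0669).

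These 3 of 33 genes (9.09%) stood against 1917 of 12000 over all genes (16.0%), of which 1226 were higher in title form 2 (10.2%) and 691 lower (5.76%), so the share of the list was no larger than that of all genes. Higher calls made up 63.95% of calls over all genes as deposited, 51.2% after quantile normalization and 46.9% in limma-voom. The median difference over the 33 genes was 0.25, with 23 above 0, against 0.03 over all genes. At an unadjusted p under 0.05 stood 14 of the 33, and 35.4% of all genes. It was positive under each of the 16 alternatives and lowest after quantile normalization, at 0.09. The forms did not overlap for 5 of the 33 genes, Slc2a1, Hk1, Slc16a1, Pdk3 and Pdk2, the last of which was lower in title form 2. Over all genes that share was 26.8%. Of the enzymes between glucose and lactate, Tpi1 came nearest to the threshold (log2 difference 0.81 ± 0.25, adjusted p = 0.0573), followed by Pgam1 (0.47 ± 0.15, adjusted p = 0.0625). Pfkl, Pgk1 and Ldha had differences of 1.12, 0.77 and 0.79 with adjusted p of 0.0994, 0.101 and 0.109. Without ICSI line 20, the count of genes past the threshold went from 3 to 11 (10.1% of all genes). The genes were Slc2a1, Slc2a3, Pfkl, Pfkp, Aldoa, Aldoc, Tpi1, Pgam1, Pkm, Slc16a1 and Slc16a3. Without control line 37, ICSI line 11 or ICSI line 17 the count was 1 in each case (2.39%, 1.75% and 3.58% of all genes), and with the fibroblast score as a covariate it was 6 (27.2%).

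**Figure D3:**
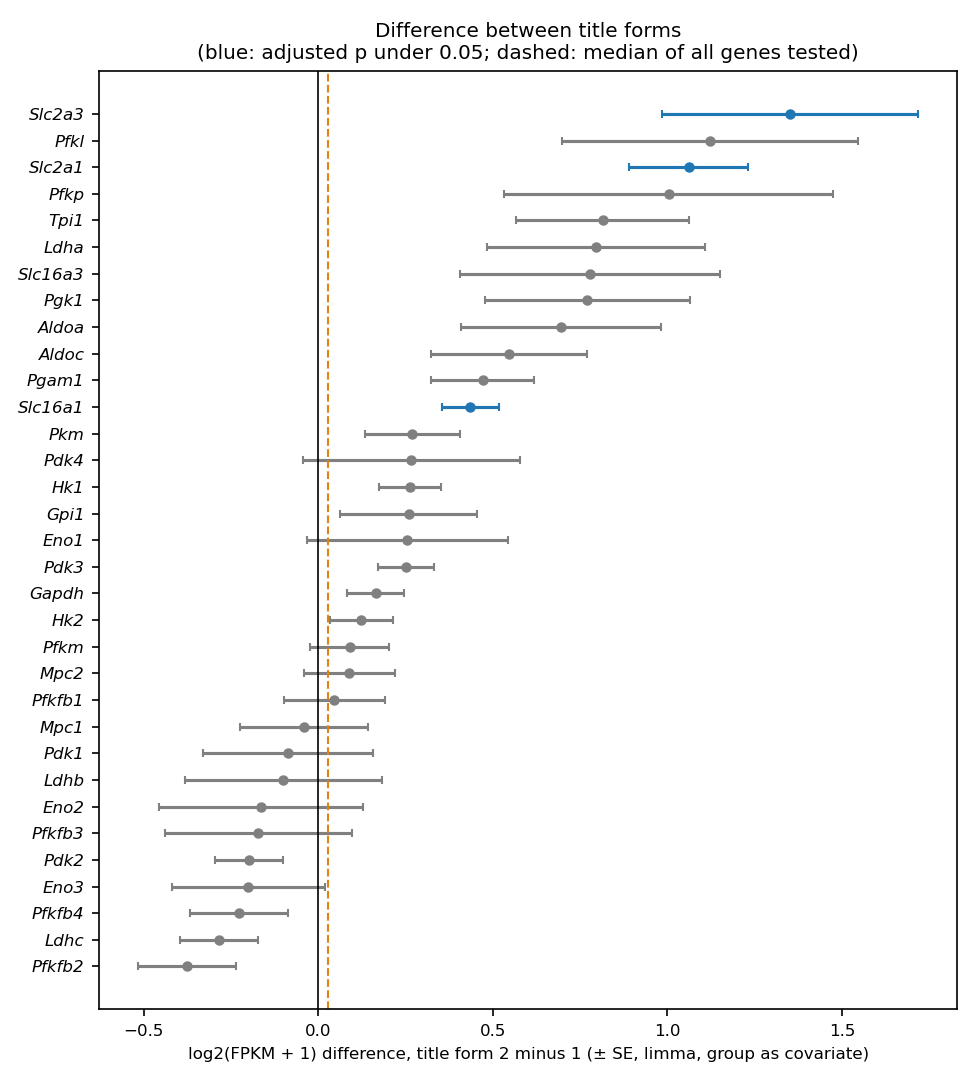
Difference in log2(FPKM + 1), title form 2 minus title form 1, for the 33 genes in order of size, with SE from limma (group as covariate, 8 lines). Blue marks the genes past the threshold on the adjusted p and the dashed line the median of all genes tested. Slc2a3 (1.35), Pfkl (1.12), Slc2a1 (1.06) and Pfkp (1.00) lie furthest to the right, and the bars of Pfkl and Pfkp are wide.

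The lines of title form 2 differed from each other. ICSI line 21 had the highest of the 8 values for 18 of the 33 genes, whereas 9.32% of all genes were highest there, and ICSI line 20 had the lowest value for 10, as it did for 18.1% of all genes. These lines were singled out after their values were seen, so all 4 pairs of lines that share group and title form are given. Line 21 exceeded line 20 for 27 of the 33 genes, with a median log2 difference of 0.56 and 12 genes above 1 (36.4%). Over all genes this median was -0.03 and 1.88% were above 1. Control line 45 exceeded line 44 for 26 genes (median 0.20, 0 above 1), control line 29 exceeded line 37 for 20 (0.10, 4 above 1) and ICSI line 11 exceeded line 17 for 16 (-0.02, 0 above 1). The fibroblast markers did not take the same order, with medians of -0.70, -1.73, 1.59 and -0.52 in these 4 pairs, and their part in the result was not tested. Under 4 other scalings, 18 to 21 of the 33 genes were highest in line 21, with 9.32% to 14.1% of all genes.

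The genes that were highest in ICSI line 21 spanned the pathway. In FPKM, line 21 over line 20 was 7.60-fold for Pfkp, 6.36 for Slc16a3, 5.19 for Pfkl and 4.19 for Slc2a3. It was 2.99 for Pfkfb3, 2.93 for Eno1, 2.88 for Aldoa, 2.58 for Ldha, 2.21 for Pgk1 and 2.17 for Tpi1. Gapdh differed by 1.09-fold only. Of the 33 genes, 6 had a ratio below 1, namely Pdk4 (0.354), Ldhb (0.574), both subunits of the pyruvate carrier (Mpc1 0.681, Mpc2 0.710), Slc16a1 (0.889) and Pdk3 (0.902). With a single line on each side these ratios have no replicate check.

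**Figure D4:**
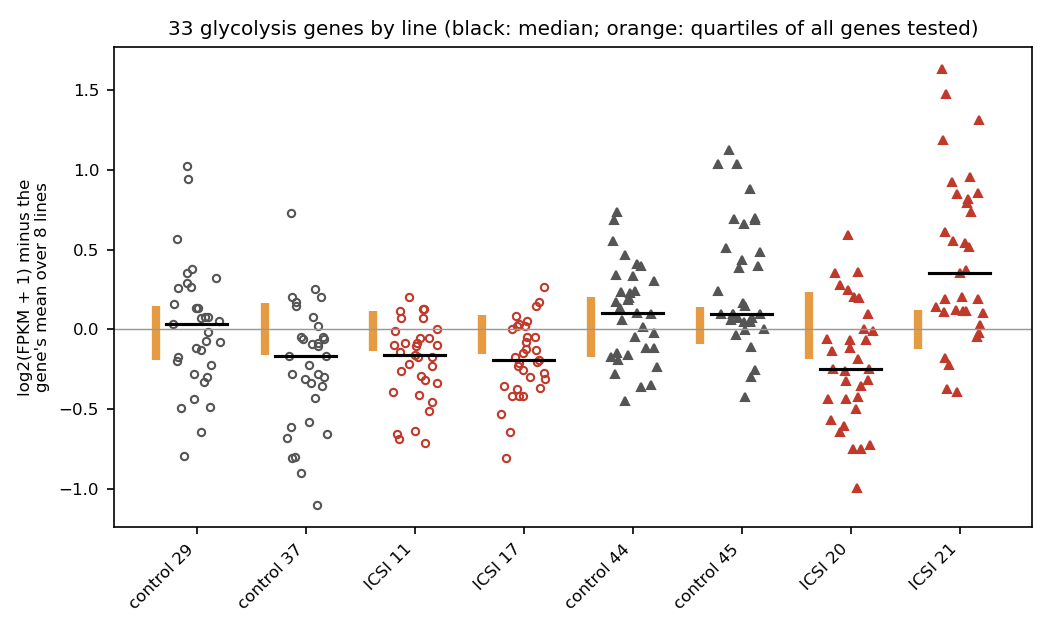
Deviation of each of the 33 genes from its own mean over the 8 lines, in log2(FPKM + 1), by line, with title form 1 left and title form 2 right. Black bars are medians of the 33 genes and orange bars the quartiles of all genes tested. The median was highest in ICSI line 21 (0.35) and lowest in ICSI line 20 (-0.25).

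Spread between lines was wide for this list. The SD over the 8 lines had a median of 0.34 in log2(FPKM + 1) for the 33 genes and 0.21 for all 12000. Among genes of at least 10 FPKM the medians were 0.41 (20 genes of the list) and 0.19 (5450 genes). The highest line exceeded the lowest by more than 1 on this scale for 17 of the 33 genes (18.1% of all genes). Within title form 1 this held for 5 genes, Pgk1, Eno2, Ldha, Ldhb and Pdk1 (3.83% of all genes), and within title form 2 for 13 (7.35% of all genes), among them Slc2a3, Pfkl, Pfkp, Pfkfb3, Aldoa, Aldoc, Tpi1, Eno1 and Slc16a3. Hk1, Hk2, Gapdh and Pdk2 were the steadiest, with the highest value 1.34 to 1.41 times the lowest.

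Genes next to the pathway were read from lists of related function, and the counts in these short lists stand against 16.0% of all genes past the threshold between title forms. Of the 28 other glycolysis and glucose genes, 12 were tested, and between title forms 0 were higher and 2 lower, the glucose-sensing factor Mlxip (log2 difference -0.45) and the ADP-dependent glucokinase Adpgk (-0.55). All 11 genes of the pentose phosphate pathway, which branches off after hexokinase, were tested and 0 passed (median -0.06). The 8 genes of the pyruvate dehydrogenase complex and its phosphatases gave 1 higher in title form 2, Dld (0.67, adjusted p = 0.0173), which encodes the E3 subunit. The 5 genes of the serine branch, which leaves the pathway at 3-phosphoglycerate, gave 0 (median -0.19). Between ICSI and control lines 0 genes passed in each of these lists. ICSI line 21 was the highest of the 8 lines for 1 of 12, 0 of 11, 1 of 8 and 0 of 5 genes of these lists, against 9.32% of all genes, and for 11 of 21 genes of the response to low oxygen. The difference between lists was not tested.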

How the data were processed

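RNA-seq was compared in 8 GS cell lines. Single reads of 76 bases were trimmed (cutadapt), mapped to mm10 (STAR) and counted per gene (HTSeq) by the authors, who deposited FPKM values. Per the submitters' notes, title form 1 used STAR 2.7.9a and title form 2 used STAR 2.6.0c, and the other tools also differed in version. The methods of the study name STAR 2.7.9a without a split by line, so the versions behind title form 2 are uncertain. The labels and the methods name different kits, so strandedness is uncertain and overlapping or antisense genes share reads. Columns deposited by the authors for their own ICSI against control comparison, a log2 fold change and an adjusted p-value, were not used. Whole reads were recovered from the steps of the FPKM values for 99.8% of genes tested (tolerance 0.02 read), and limits from reads cover counting error only.

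Genes averaging 1 FPKM or more were tested with limma 3.58.1 in R 4.3.3 (lmFit, eBayes with trend) on log2(FPKM + 1). The tests were two-sided, p-values were adjusted over 12000 genes (Benjamini-Hochberg), and the threshold was 0.05. Because the values are FPKM, this replaced the study's count model. The pseudocount understates changes of low genes. The model had group alone, group and title form, or their product. The fits were also run on simulated data, in which genes varied independently of each other. That run set no minimum of changes to be found by the interaction, so what the interaction can detect was not established. Values in every line were given for the most abundant gene of each of 16 steps by mean FPKM, genes past the threshold between title forms, the 3 genes with smallest p between groups, Pgk2 and Ldhc. From neighbouring lists, at most 5 genes past the threshold were named in each. The members and lists were chosen with earlier results of these data known. Gene positions came from a GENCODE annotation of GRCm38 in an earlier release than the study's. Alternatives changed the pseudocount, filter, scaling, test, covariates and lines.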

Additional observations from a re-analysis of the deposited data

Results flagged for a closer look

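In 66 groups of 4 lines examined, 1 line stood apart from the other 3 in 2 cases, and chance alone marks about 1 in 20 such groups. Slc2a3 in ICSI line 21 (45.1 FPKM) was separated from ICSI lines 11, 17 and 20 (9.32, 11.4 and 10.8 FPKM) by a gap of 0.876 of the whole range in log2(FPKM + 1), more than Dixon's test allows for 4 values. Pgk1 in control line 37 (5.72 FPKM) was separated from control lines 29, 44 and 45 (15.0, 16.4 and 16.8 FPKM) by a gap of 0.889 of the range on the same log2 scale.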

How the results depend on the processing

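Between ICSI and control lines, 0 of the 33 genes passed under all 17 alternatives, but the sign of the difference changed in at least 1 of them for 19 of the 33. With no filter, 1 gene of all tested passed between these groups. The interaction gave 0 in each of its 8 alternatives. Between title forms, 3 genes passed; leaving out 1 line at a time gave 1 to 11, and the fibroblast score as a covariate gave 6, with Tpi1, Pgam1 and Pfkfb2 added. The other 7 settings gave 2 to 4. The sign changed for 9 of the 33. Over all genes the count between title forms was 1917, ranging from 210 to 2691 without 1 line, 3265 with the fibroblast score and 1255 with no filter, and the cause was not tested. The 4 scalings for the count of genes highest in ICSI line 21 were added after seeing the data. Depth limited Hk3, Pgk2, Pgam2, Pklr and the second Aldoa identifier, with at most 29 reads in any line. No paired analysis was possible because the groups share no replicate numbers.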

Other observations

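Genes of the response to low oxygen, a list also chosen with earlier results of these data known, were read from the same comparison of title forms. Of the 23 symbols listed, among which Ero1a and Ero1l name the same gene, 21 were tested. Among them 7 were higher and 1 lower in title form 2, with a median log2 difference of 0.30, against 16.0% of all genes past the threshold. The 5 with the smallest p were Egln3 (1.03, adjusted p = 0.00855) and Epas1 (0.94, adjusted p = 0.0123), which encode an oxygen-sensing hydroxylase and the factor HIF2A, P4ha1 (1.09, adjusted p = 0.0224), a collagen hydroxylase subunit, Ndrg1 (0.85, adjusted p = 0.0245) and Higd1a (0.37, adjusted p = 0.0312), a mitochondrial protein. Egln3 was at 5.68, 5.12, 9.44 and 14.9 FPKM in control lines 29, 37, 44 and 45 and at 5.37, 5.54, 11.1 and 13.6 FPKM in ICSI lines 11, 17, 20 and 21, so that the title forms did not overlap.

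Of the 21 genes, 11 were highest in ICSI line 21, where 9.32% of all genes were. Line 21 exceeded line 20 for 15 of them, with a median log2 difference of 0.40 and 5 above 1. Ankrd37 and Ero1l, singled out after their values were seen, were at 46.7 and 131 FPKM in line 21 against 5.96 and 31.4 FPKM in line 20. Hif1a, whose product is regulated mainly as a protein, was lowest in line 21 (12.0 FPKM) and highest in control line 29 (24.2 FPKM). Among germ cell markers, 0 of 13 spermatogonial, 2 of 6 spermatocyte and 0 of 1 spermatid genes tested were highest in ICSI line 21.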
